A study of Homo sapiens with 6 samples.

Results

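The transcriptome of total lysate from HK2 cells was described from 3 RNA-seq libraries of the 6 in the series. HK2 is an immortalised line of human kidney proximal tubule epithelium. The cells had received a plasmid that encodes VMP1 with a FLAG tag and were harvested at 48 hours; VMP1 sits in the endoplasmic reticulum and acts when autophagosomes form. The 3 libraries were chosen by their titles, which call them positive controls, and by their treatment label, which says that the lysate was used without immunoprecipitation; they are called lysates 1, 2 and 3. The other 3 libraries are FLAG immunoprecipitates from transfected cells and enter no value here. Lysate of cells without the plasmid was not analysed here, so transfection is common to all the values. The treatment labels number the plasmid differently from sample to sample. The titles of the immunoprecipitates name VMP1 alone and are followed here, while the titles of the lysates name no plasmid. The labels do not say that the lysates came from separate cultures, so an SD over lysates may be technical spread.

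The proximal tubule reabsorbs most of what the glomerulus filters, through sodium-coupled carriers and endocytic receptors in its brush border and the sodium pump in its basolateral membrane. Its cells rest on a basement membrane built of collagen IV, laminins, nidogen and perlecan, and hold keratins KRT8 and KRT18 in their cytoskeleton. Injured and cultured tubule cells are known to gain vimentin, osteopontin and KIM-1, the product of HAVCR1. The question for these libraries was which of those genes the lysate contained, at what level, and how far the 3 lysates differed.

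The deposited gene counts summed to 77753608, 86998067 and 92948069 in lysates 1, 2 and 3. Levels are counts per 1e+06 counts of the library (CPM), so each is a share of the library and not an amount per cell. An order of genes by CPM is an order of shares of counts, in which long messages weigh more. In these bulk libraries fewer cells of a type and less RNA per cell cannot be told apart. Values after ± are SDs over the 3 lysates (n = 3). Of 61806 genes in the count table, 31752 had a count in at least 1 lysate and 14502 reached 1 CPM in all 3, the threshold called detected below. At these depths 1 CPM stood for 77.8 to 92.9 counts, and 0 counts in a library allow a level of up to 0.0386, 0.0345 and 0.0323 CPM in lysates 1, 2 and 3 (3 counts; counting error only). Across the 14502 detected genes the pairs of lysates correlated at r = 0.991 to 0.994 on the log2 CPM scale, which describes genes and not independent replicates. Of 10245 genes averaging 10 CPM or more, 240 (2.34%) had a highest lysate over 1.5 times the lowest, and lysate 1 was that highest one for 142 (1.39%). Blood cell markers were among the genes highest in lysate 1. Summed CPM of the leukocyte markers was 1284 in lysate 1 against 849 in lysate 2 and 821 in lysate 3. Most values that rest on those genes are given by lysate. Other genes, among them COL1A2, IGFBP5 and CHTF8, were also past that ratio with lysate 1 highest.

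Genes of the mitochondrial genome, translation, glycolysis, the cytoskeleton and the extracellular matrix held the largest shares of the lysate. MT-CO1, a core subunit of cytochrome oxidase, stood at 23447, 24914 and 24521 CPM in lysates 1, 2 and 3, and MT-RNR2, the large ribosomal RNA of the mitochondrion, at 12276, 13449 and 12432 CPM. Lysate 1 was lowest for both. EEF1A1, the elongation factor that delivers transfer RNA to the ribosome, stood at 9997, 10526 and 10108 CPM. FN1, which encodes fibronectin, was the most abundant matrix gene, at 9244, 9208 and 10321 CPM, with lysate 3 above the other two. The glycolytic enzyme gene GAPDH followed at 7079, 7224 and 7463 CPM, and the actin genes ACTG1 and ACTB at 4836 ± 34.5 and 4726 ± 124 CPM. ACTG1 varied less between lysates than its neighbours in this order.

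**Figure D1:**
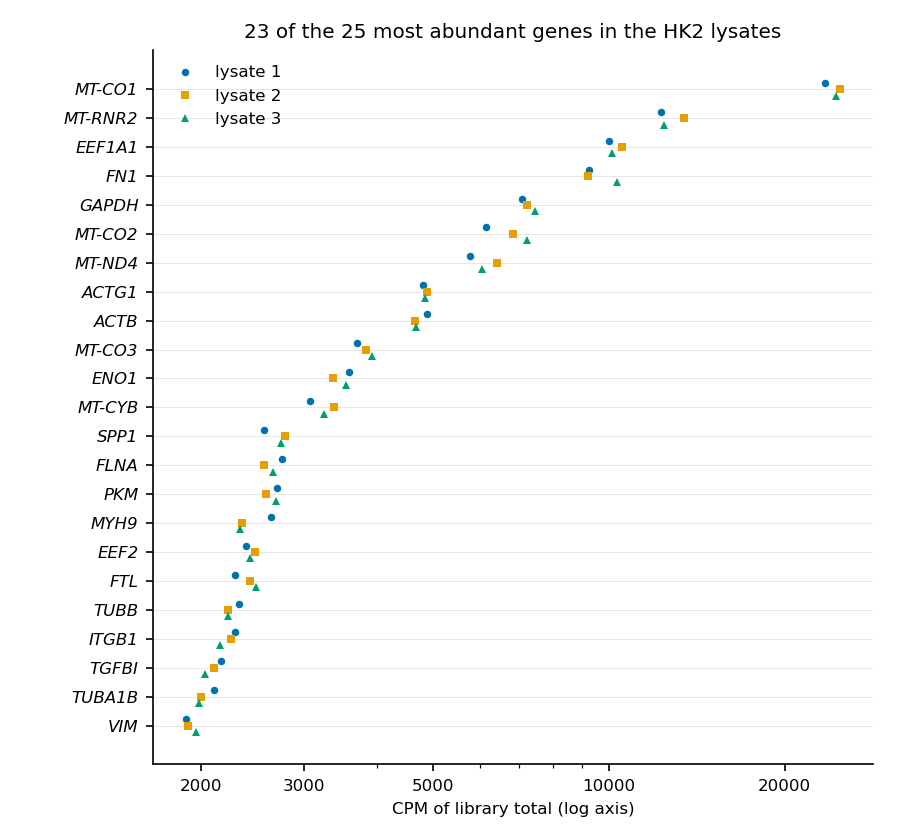
CPM of 23 of the 25 genes with the highest mean over the lysates, 1 point per lysate on a log axis, in the order of the mean. MT-CO1 leads at a mean of 24294 CPM, VIM closes the set at 1911 CPM, and the 3 lysates of a gene lie close together against the range between genes.

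The 25 genes with the largest shares held 12.8 ± 0.246% of all counts, and 6 of them lie in the mitochondrial genome. Beside those already named they include MT-CO2, MT-CO3, MT-ND4 and MT-CYB of the respiratory chain, ENO1 and PKM of glycolysis, EEF2 of translation, TUBB and TUBA1B of microtubules, and FLNA and MYH9 of the actin network. Secreted and adhesion genes in the set, besides FN1, were SPP1 (osteopontin), TGFBI and the integrin beta chain ITGB1. FTL of ferritin and VIM, the intermediate filament vimentin, belong to it too. Of the 25 genes, 24 were in the 25 highest of every lysate taken alone. Single genes held little of the library: the first gene held 2.43 ± 0.0760% of counts, the first 10 held 9.03 ± 0.256%, the first 100 held 21.7 ± 0.278% and the first 1000 held 50.7 ± 0.249%. The 963 most abundant genes held 50% of the counts.

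On a scale per transcript length the order changed. Deposited FPKM divides by length, and adding it over a gene's transcripts gives a level that can be set against that of another gene; the deposited gene FPKM lies below that sum where a gene has several transcripts (966 against 4348 for EEF1A1). On summed transcript FPKM, MT-CO1 remained first at 15005 ± 465, followed by MT-CO2 at 9387 ± 772 and MT-RNR2 at 7770 ± 387. GAPDH, at 5255 ± 141, then lay above EEF1A1, at 4348 ± 335, and FN1, a long message, fell to rank 26 at 1150 ± 78.6. Short messages moved up: FTL to 2618 ± 108, and TMSB10, an actin-binding thymosin, to 1916 ± 74.9. SPP1 lay at 1631 ± 72.2 on this scale, above FN1 and below ENO1 at 1866 ± 66.4. The 25 genes highest in CPM and the 25 highest in summed transcript FPKM shared 15, and 11 of the latter were mitochondrial. The 25 highest in deposited gene FPKM held 16 mitochondrial genes, among them MT-ND4L, MT-ATP6, MT-ATP8, MT-ND1, MT-ND2, MT-ND5, MT-RNR1 and the transfer RNA genes MT-TL1, MT-TS1 and MT-TY.

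By the gene classes of the deposited table, 91.6 ± 0.218% of lysate counts fell on protein-coding genes. The mitochondrial genome took 6.47 ± 0.274%, of which its messenger genes took 5.10 ± 0.222% and its 2 ribosomal RNAs 1.33 ± 0.0633%. Long noncoding genes took 0.922 ± 0.0206% and pseudogenes 0.813 ± 0.0368%. Of 17060 protein-coding genes in the table, 12749 were detected (74.7%), against 994 of 9301 long noncoding genes and 548 of 5147 pseudogenes. This 74.7%, and the median of 16.3 CPM over the 17060, are what counts and medians of coding gene lists below can be set against. NORAD, a long noncoding RNA that binds Pumilio proteins, led its class at 319, 326 and 314 CPM, followed by the nuclear RNAs MALAT1 at 204, 188 and 198 and NEAT1 at 163, 140 and 170 CPM. SNHG29 and FGD5-AS1 stood at 181 ± 13.4 and 145 ± 4.29 CPM. EEF1A1P5 led the pseudogenes at 915, 752 and 735 CPM, and MTCO1P12 and MTATP6P1, copies of mitochondrial genes in the nuclear genome, followed at 410 ± 7.44 and 280 ± 18.3 CPM. These are near-identical to EEF1A1, MT-CO1 and MT-ATP6, so the split of reads between gene and copy is uncertain.

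Families within the coding class differed in how complete they were. Cytosolic ribosomal protein genes were detected in 82 of 84 cases and summed to 31926 ± 1182 CPM, led by RPLP0 at 1808 ± 55.7, RPL3 at 1430 ± 45.1 and RPL7A at 1260 ± 15.1 CPM. All 78 mitochondrial ribosomal protein genes in the table were detected, at 2544 ± 79.3 CPM in sum, led by MRPL3 at 224 ± 8.24 CPM. Replication-dependent histone genes, whose messages end in a stem-loop in place of a poly(A) tail, were detected in 8 of 60 cases and summed to 49.5 ± 9.89 CPM in these poly(A)-selected libraries. H2AC6 was the highest of them, at 17.4, 13.8 and 11.2 CPM, and lysate 1 was above the other two. Small nucleolar RNA host genes were detected in 20 of 28 cases, numbered LINC genes in 132 of 958 and antisense genes in 275 of 1211. Of all long noncoding genes 10.7% were detected.

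Promoters of the most abundant genes held some motifs at other shares than those of the remaining genes. Of 16813 protein-coding genes with a symbol, 9620 had exactly 1 window of 300 bases around the start (250 before, 50 after) in the RefSeq table for GRCh38.p14; genes with several starts, such as many with alternative promoters, are left out. TATAA, read on the gene's strand with all 5 letters between 40 and 21 bases before the start, was present in 4.93% of all these windows. It was present in 11.1% of 2258 genes under 1 CPM, in 2.06% of 4468 genes from 10 to 100 CPM and in 21.9% of 32 genes at 1000 CPM or more. Those 7 genes were EEF1A1, FN1, EEF2, RPLP0, P4HB, CALR and VCAN. GGGCGG, on either strand anywhere in the window, was present in 41.9% of windows under 1 CPM and in 90.6% at 1000 CPM or more, against 65.6% of all windows. CCAAT on either strand varied less, from 34.3% between 1 and 10 CPM to 53.1% at 1000 CPM or more, against 37.2% of all. Median GC content of the window was 58.0% under 1 CPM and 67.2% in the highest class. CCAAT read on the opposite strand can share its last letters with GGGCGG, and each match was counted for its own motif. No test was made, and a match is a string of letters and not a shown binding site. The bases from 60 to 1 before the RefSeq start are shown for the 3 genes of the 25 most abundant that hold TATAA, which is in capitals; it begins 28, 28 and 30 bases before the start of EEF1A1 (chr6:73521033-73521092, minus strand), FN1 (chr2:215436069-215436128, minus strand) and EEF2 (chr19:3985464-3985523, minus strand).
EEF1A1: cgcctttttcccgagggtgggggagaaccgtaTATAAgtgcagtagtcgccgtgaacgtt
FN1: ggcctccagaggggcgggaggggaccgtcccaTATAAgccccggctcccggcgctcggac
EEF2: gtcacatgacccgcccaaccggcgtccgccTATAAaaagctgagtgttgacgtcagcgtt

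PAX8 was abundant among the kidney lineage regulators, while HNF4A averaged below 1 CPM. PAX8, a paired-box factor of nephron progenitors and tubules, stood at 277, 295 and 286 CPM. Lysate 1 was lowest and the lysates lay within a narrow band. SALL1, GLIS3, LHX1 and SIM1, which act in nephron development, stood at 115 ± 2.83, 101 ± 4.46, 47.9 ± 7.81 and 46.9 ± 2.48 CPM. Of 44 listed lineage factors with a row in the table, 31 were detected, with a median of 3.38 CPM over the 44; the median over all 17060 protein-coding genes was 16.3 CPM. HNF4A, the factor of mature proximal tubule, was at 0.0514, 0.0460 and 0.0861 CPM and PAX2 at 2.36 ± 0.224 CPM; both were named after their values were seen. WT1, of podocytes and nephron progenitors, and EMX2 had 0 counts in all 3 lysates.

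**Figure D2:**
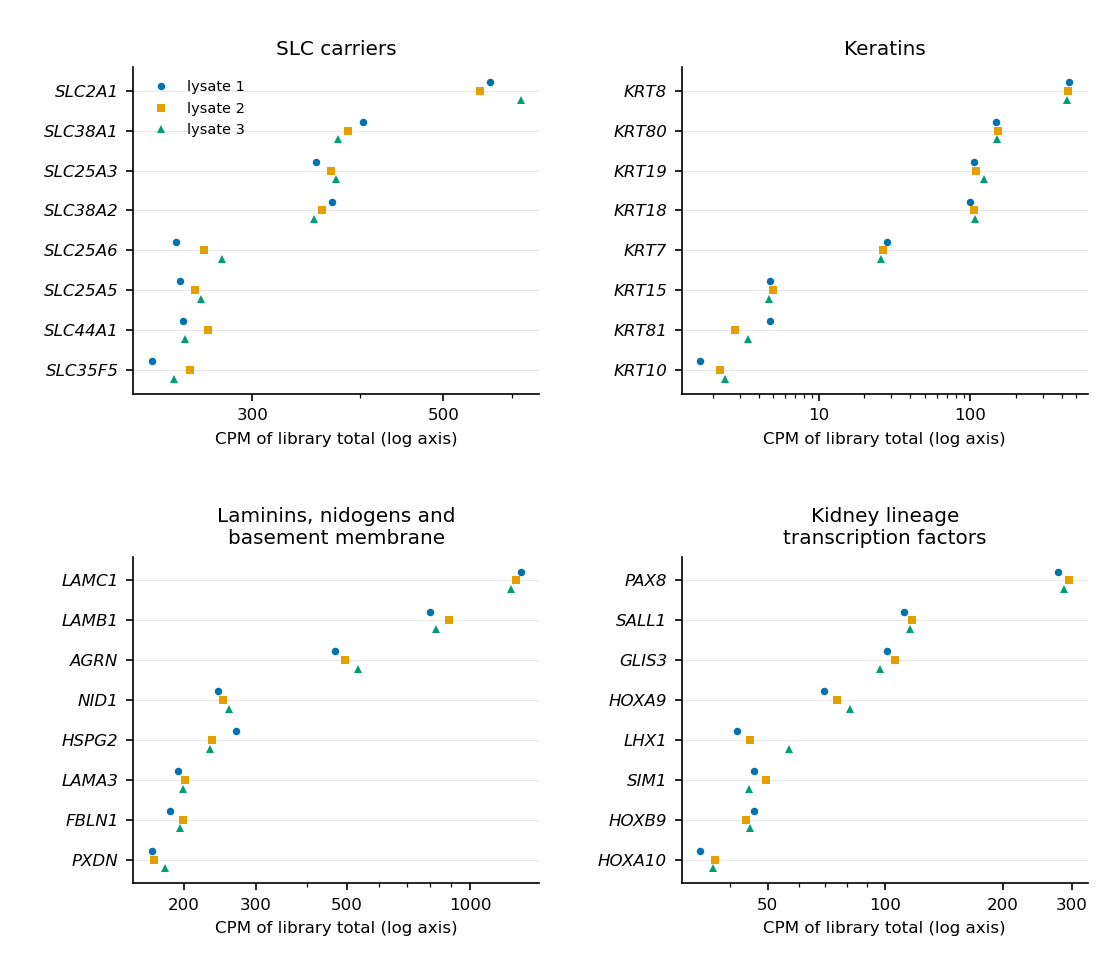
CPM of 8 members of high mean in each of 4 groups, 1 point per lysate on a log axis whose range differs between panels. SLC2A1 leads the SLC carriers at a mean of 577 CPM, and KRT8 the keratins at 442 CPM; LAMC1 is drawn at 1295 and PAX8 at 286 CPM.

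Fewer than 20 of the carriers and receptors that define the proximal tubule were detected. Of 49 fixed genes, 40 had a row in the annotated gene table; 19 of these were detected, 18 had counts but fell short of 1 CPM in at least 1 lysate, and SLC15A1, SLC22A13 and SLC13A2 had 0 counts in all 3. The median of the 40 was 0.956 CPM; of all protein-coding genes 74.7% were detected. The remaining 9, among them LRP2 (megalin) and the organic anion and cation carriers SLC22A6, SLC22A8 and SLC22A2, had no row. No value is given for them, and the median leaves them out. Genes with a row took up nearly all counts of each lysate, so these 9 lay near 0 unless listed under another name. The highest members were the drug efflux pump ABCB1 at 145, 136 and 140 CPM, the phosphate carrier SLC20A1 at 122, 113 and 109 CPM and the basolateral bicarbonate cotransporter SLC4A4 at 106, 107 and 107 CPM. Next came the organic anion carrier SLCO4C1 at 104 ± 2.50, the efflux pump ABCC4 at 92.1 ± 2.33, SLC9A3R1, a brush border scaffold gene, at 36.7 ± 1.64, the folate receptor FOLR1 at 32.4 ± 1.20 and the glutamate carrier SLC1A1 at 28.3 ± 0.399 CPM. Named after their values were seen, the brush border phosphate carrier SLC34A1 stood at 1.14, 1.46 and 1.44 CPM, the glucose carrier SLC5A2 at 3.68, 1.89 and 1.56, cubilin CUBN at 0.617, 0.862 and 0.613 and the water channel AQP1 at 0.733, 0.241 and 0.0968 CPM. Each is under 4 CPM in every lysate.

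Enzymes of the proximal tubule ranged from over 200 CPM to near 0. Of 33 listed genes with a row, 19 were detected and 14 had counts below that level, with a median of 2.55 CPM. The brush border peptidase DPP4 stood at 225, 231 and 222 CPM, gamma-glutamyltransferase GGT1 at 210, 222 and 215 CPM, and the scaffold PDZK1 and its partner PDZK1IP1 at 183 ± 8.80 and 138 ± 5.08 CPM. GGT1 has close relatives in the genome, so its reads are uncertain. The reductase AKR1A1, the peptidase MME, the plasma glutathione peroxidase GPX3 and the vitamin D hydroxylase CYP24A1 stood at 92.1 ± 3.13, 69.1 ± 5.58, 65.2 ± 1.73 and 46.1 ± 4.64 CPM. Lysate 1 was above the other two for ANPEP, at 21.2, 13.9 and 13 CPM, and for ALPL, at 15.9, 10.2 and 8.96 CPM. Both are also known from granulocytes, whose markers moved with that lysate; their part in these 2 values was not tested.

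SPP1, VIM and CCN1 led the genes of tubule injury and repair. Of 26 such genes, 25 were detected and 22 averaged at least 10 CPM; the median was 47.3 CPM and the summed level 8746 ± 215 CPM. SPP1 stood at 2561, 2777 and 2737 CPM and VIM at 1880, 1894 and 1959 CPM. CCN1, a matricellular gene, stood at 803 ± 37.1 CPM. HAVCR1, the KIM-1 gene, stood at 781, 822 and 775 CPM, with lysate 2 highest. CD24, CD44, TIMP2 and MYC followed, at 673 ± 46.1, 447 ± 8.77, 394 ± 13.2 and 284 ± 2.45 CPM. On summed transcript FPKM, HAVCR1 lay at 183 ± 7.09, above DPP4 at 59.8 ± 1.61 and SLC4A4 at 13.6 ± 0.0466.

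Most markers of the loop of Henle, the distal tubule, the collecting duct and endothelium did not reach 1 CPM in every lysate; the list medians were 0.265 CPM for loop and distal tubule, 0.465 CPM for collecting duct, 0.297 CPM for endothelium and 2.01 CPM for podocytes. In the loop of Henle and distal tubule list 3 of 13 genes with a row were detected, led by the claudin gene CLDN16 at 26.1, 25.8 and 24.9 CPM, while CLDN10 had 0 counts in all 3 lysates. In the collecting duct list 4 of 12 were detected, led by the sodium channel subunit SCNN1A at 14.8, 17.3 and 20.6 CPM. Endothelial markers were detected in 3 of 12 cases, PECAM1 at 30.0, 17.5 and 16.7, EGFL7 at 19.6 ± 2.36 and ESAM at 3.21 ± 0.527 CPM; PECAM1 is also carried by leukocytes. In the podocyte list 7 of 11 were detected, led by CD2AP and SYNPO at 246 ± 9.87 and 170 ± 2.37 CPM, 2 adaptor genes that many epithelia express. Fibroblast and pericyte markers were detected in 12 of 15 cases, led by lysyl oxidase LOX at 126 ± 3.26 and lumican LUM at 83.3 ± 2.68 CPM, with a median of 8.70 CPM for the list. COL1A1 stood at 28.6, 28.1 and 22.8, COL3A1 at 11.4, 8.24 and 6.43 and COL1A2 at 29.5, 15.7 and 15.5 CPM. Lysate 1 was highest for each of these 3 collagens. Of 7 members averaging at least 10 CPM, 2 were past 1.5 times the lowest lysate, each with lysate 1 highest. They were COL1A2 and DCN, the latter at 21.4, 15.6 and 13.1 CPM. Of all genes of that level, 2.34% were past the ratio and 1.39% with lysate 1 highest. COL3A1 was past that ratio too but averaged below 10 CPM.

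**Figure D3:**
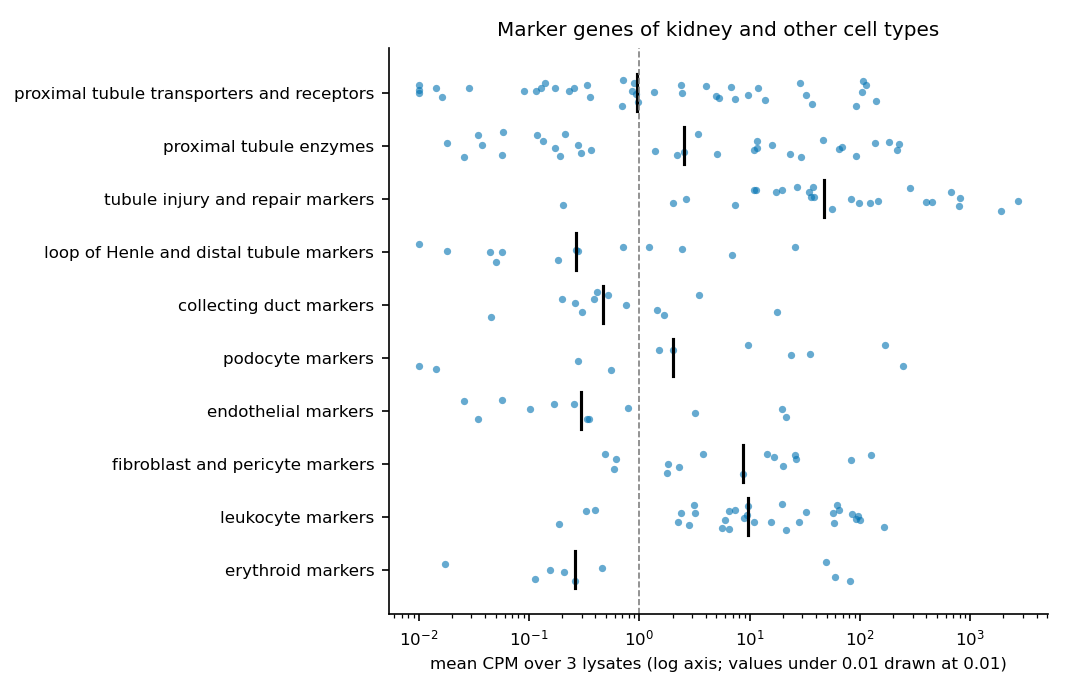
Mean CPM over the 3 lysates of each gene with a row in the table, by fixed marker list, on a log axis; the black bar is the list's median, the dashed line 1 CPM, and values under 0.01 CPM are drawn at 0.01. The injury and repair list has its median at 47.3 CPM, while the 2 proximal tubule lists have theirs at 0.956 and 2.55 CPM.

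Among the SLC carriers, those for glucose, glutamine and the inner mitochondrial membrane held the largest shares. Of 322 SLC carrier genes 222 were detected, 89 had fewer counts and 11 had 0 in all lysates; the family summed to 10719 ± 60.3 CPM, about 1.07% of counts, with a median of 9.24 CPM. The glucose carrier SLC2A1 stood at 566, 551 and 615 CPM, lysate 3 above the other two. The glutamine carriers SLC38A1 and SLC38A2 stood at 403, 387 and 377 and 371, 362 and 354 CPM, and their lysates differed little. The mitochondrial phosphate carrier SLC25A3 and the adenine nucleotide carriers SLC25A6 and SLC25A5 stood at 367 ± 10.3, 262 ± 16.3 and 256 ± 7.28 CPM. SLC44A1, a choline carrier, and SLC35F5 stood at 255 ± 9.64 and 243 ± 12.6 CPM.

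All 12 glucose and monocarboxylate carriers and all 23 amino acid carriers on the fixed lists were detected. After SLC2A1 came the lactate carriers SLC16A3, at 155, 157 and 207 CPM, and SLC16A1, at 154, 153 and 152 CPM; SLC16A3 was highest in lysate 3, while SLC16A1 hardly varied. SLC2A3, a second glucose carrier, stood at 68.1 ± 7.57 CPM. The taurine carrier SLC6A6, the creatine carrier SLC6A8, the glutamine carrier SLC1A5 and the arginine carrier SLC7A1 stood at 175 ± 11.8, 156 ± 6.21, 129 ± 1.75 and 103 ± 2.89 CPM. Of 25 pumps, exchangers and cotransporters for ions 21 were detected. The sodium pump subunit ATP1B1 stood at 179, 198 and 191 CPM, and the calcium pumps ATP2A2, ATP2B4 and ATP2C1 at 363 ± 13.6, 301 ± 7.84 and 294 ± 6.48 CPM. Metal and nucleoside carriers were detected in 18 of 21 cases, led by the transferrin receptor TFRC at 254, 208 and 211 CPM and the zinc carriers SLC39A1 and SLC39A7 at 202 ± 5.36 and 196 ± 6.64 CPM.

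Of 41 ABC transporter genes 26 were detected, and none had 0 counts in all lysates. The cholesterol exporter ABCA1 stood at 249, 229 and 222 CPM; ABCC1, a drug efflux pump, stood at 116 ± 4.65 CPM. ABCE1 and ABCF1, which act in translation and transport nothing across membranes, stood at 122 ± 10.3 and 106 ± 2.59 CPM. Among 10 SLCO carriers 6 were detected, led by the prostaglandin carrier SLCO2A1 at 165, 172 and 173 CPM; the liver carrier SLCO1B1 had 0 counts in all 3. Aquaporins were detected in 3 of 10 cases, and AQP9 was the one above 10 CPM, at 41.2, 25.6 and 23.7 CPM, with lysate 1 high. AQP9 is known from neutrophils; the part of blood cells in its level was not tested.

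KRT8, KRT80, KRT19, KRT18 and KRT7 made up nearly all keratin counts. Of 28 keratin genes 9 were detected, and the family summed to 851 ± 3.91 CPM, with 848, 848 and 855 CPM in lysates 1, 2 and 3. KRT8 stood at 449, 440 and 436 CPM and KRT18, its filament partner, at 99.6, 106 and 107 CPM. Per length, on summed transcript FPKM, KRT8 lay at 215 ± 2.23 and KRT18 at 69.9 ± 2.15, with no overlap between their lysates. KRT19 lay at 78.0 ± 6.76 on that scale, and differs from KRT18 by no more than their SDs together. KRT80 stood at 148, 152 and 149 CPM, KRT19 at 106, 109 and 122 CPM and KRT7 at 28.0, 26.4 and 25.7 CPM. KRT15, KRT81 and KRT10 were the next, at 4.80 ± 0.161, 3.65 ± 0.981 and 2.1 ± 0.405 CPM, while the basal keratin KRT5, and KRT75, had 0 counts in all 3. The genes of KRT8 (chromosome 12, 52897187 to 52949954, minus strand) and KRT18 (52948871 to 52952900, plus strand) overlap at their ends in the deposited table, so reads there are uncertain.

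Vimentin exceeded each keratin per length. VIM lay at 933 ± 4.86 on summed transcript FPKM against 215 ± 2.23 for KRT8. Of 15 other intermediate filament genes 12 were detected, and VIM held 1911 of their 2544 summed CPM. The lamins LMNB2, LMNA and LMNB1 stood at 207 ± 11.1, 128 ± 1.95 and 128 ± 5.81 CPM. The neuronal filament genes INA and NEFH were detected too, at 55.4 ± 0.778 and 31.6 ± 0.871 CPM, as were NES and SYNM at 37.1 ± 3.80 and 24.9 ± 1.14 CPM.

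CDH6 led the cell junction genes, and CDH1 was near 1 CPM. CDH6, a cadherin of nephron progenitors and proximal tubule, stood at 1347, 1398 and 1365 CPM and CDH2 (N-cadherin) at 368, 352 and 353 CPM. CDH1 (E-cadherin) was at 1.25, 1.68 and 1.16 CPM, named after its value was seen. Of 34 junction and polarity genes with a row 29 were detected. The catenins CTNNA1, CTNNB1 and CTNND1 stood at 315 ± 12.7, 283 ± 3.79 and 213 ± 15.7 CPM, the tight junction adhesion gene F11R at 248 ± 5.98, the polarity gene PARD3 at 245 ± 5.24 and the desmosomal cadherin DSG2 at 240 ± 10.1 CPM. Claudins were detected in 7 of 19 cases. CLDN1 and CLDN11 stood at 196 ± 4.37 and 158 ± 8.02 CPM. CLDN2, the cation pore of the proximal tubule, stood at 109, 116 and 127 CPM.

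FN1, SPP1 and TGFBI led the matrix genes. Glycoproteins and matricellular genes alone summed to 19687 ± 639 CPM, of which FN1 held 9591, and 28 of 34 were detected with a list median of 70.2 CPM. Beside FN1 and SPP1, TGFBI stood at 2158, 2100 and 2027 CPM, SPARC, a collagen-binding glycoprotein, at 1651, 1661 and 1649 CPM and THBS1 (thrombospondin) at 926, 819 and 793 CPM. SPARC differed between lysates by under 1%, while THBS1 was highest in lysate 1. IGFBP3 and NPNT, a nephronectin that binds integrins in the developing kidney, stood at 342 ± 19.9 and 288 ± 22.7 CPM. VTN, the vitronectin gene, had 0 counts in all 3 lysates.

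Collagen IV led the collagens. COL4A1 stood at 1677, 1732 and 1687 CPM and COL4A2 at 1125, 1129 and 1108 CPM, and the lysates of each lay within a few percent of one another. Per length, COL4A1 lay at 248 ± 4.15 and COL4A2 at 167 ± 1.69 on summed transcript FPKM. The protein they form together has 2 chains of the first and 1 of the second. Of 43 collagen genes with a row 22 were detected, and COL2A1, COL5A3, COL23A1 and COL25A1 had 0 counts in all 3. COL8A1, COL6A2, COL18A1, COL6A1 and COL7A1, of which COL7A1 forms anchoring fibrils, stood at 293 ± 3.54, 258 ± 25.5, 225 ± 14.4, 138 ± 3.14 and 112 ± 3.57 CPM. Both collagen IV genes start from 1 stretch of DNA on chromosome 13, head to head: the RefSeq start of COL4A1 lies at 110307157 on the minus strand and that of COL4A2 at 110307284 on the plus strand (GRCh38.p14). The 126 bases between them (chr13:110307158-110307283), the stretch that belongs to both promoters, are shown on the plus strand, with 1 CCAAT and 1 GGGCGG in capitals. The deposited table lets COL4A2 begin further upstream, at 110305812, so it overlaps COL4A1 there and reads in that part are uncertain.
COL4A1-COL4A2: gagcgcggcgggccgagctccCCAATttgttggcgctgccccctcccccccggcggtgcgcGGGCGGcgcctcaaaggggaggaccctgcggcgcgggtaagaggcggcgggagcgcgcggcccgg

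Of 21 basement membrane genes beyond collagen IV (laminins, nidogens and related genes), 20 were detected, against 74.7% of all protein-coding genes. At least 10 CPM was averaged by 16 of them. The list had a median of 134 CPM, against 16.3 CPM over all protein-coding genes. LAMC1 and LAMB1, laminin chains of most basement membranes, stood at 1331, 1291 and 1261 and 797, 889 and 825 CPM, and the alpha chain LAMA3 at 193, 201 and 199 CPM. On summed transcript FPKM LAMC1 lay at 156 ± 4.35, LAMB1 at 143 ± 7.21 and LAMA3 at 18.5 ± 0.526; of these 3, LAMC1 and LAMB1 come closest. Agrin (AGRN), nidogen (NID1) and perlecan (HSPG2) stood at 499 ± 31.9, 250 ± 8.01 and 244 ± 20.3 CPM, and fibulin FBLN1 at 193 ± 7.21 CPM.

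Proteoglycans were detected in 16 of 24 cases. Versican (VCAN), a large chondroitin sulfate proteoglycan, stood at 1114, 1090 and 1095 CPM. The cell surface heparan sulfate carriers GPC4, SDC2, SDC4, SDC1 and SDC3 stood at 349 ± 10.5, 265 ± 1.13, 259 ± 1.38, 159 ± 7.38 and 117 ± 7.2 CPM. Aggrecan (ACAN) had 0 counts in all 3. Serglycin (SRGN), the proteoglycan of leukocyte granules, stood at 103, 62.2 and 55.3 CPM, and lysate 1 did not overlap the other two.

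Enzymes that build and cross-link collagen were abundant, and 35 of 43 matrix enzymes and inhibitors were detected with a median of 61.8 CPM. MMP12, counted among the 43, had no row under its own symbol and was matched through a synonym. That synonym may belong to another gene, so this member is uncertain. The cross-linking oxidase LOXL2 stood at 1860, 1847 and 1826 CPM, and P4HB, a subunit of prolyl hydroxylase that also isomerises disulfides, at 1557, 1583 and 1633 CPM. The lysyl hydroxylases PLOD2 and PLOD1 stood at 719 ± 9.94 and 328 ± 5.05 CPM and the prolyl hydroxylase P4HA1 at 399 ± 4.46 CPM. In the plasminogen system, urokinase PLAU stood at 490, 528 and 523 CPM. TIMP4 had 0 counts in all 3.

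Integrin genes were detected in 21 of 25 cases. ITGB1, the beta chain shared by most matrix receptors, stood at 2286, 2245 and 2149 CPM, and ITGB3 and ITGAV, which pair in the vitronectin receptor, at 1016, 1090 and 1071 and 826, 843 and 806 CPM. The laminin receptor chain ITGA3 stood at 1038, 1047 and 1018 CPM, and ITGB5, ITGA5 and ITGB8 at 409 ± 10.4, 281 ± 16.5 and 194 ± 3.29 CPM. Per length, ITGB1 lay at 551 ± 10.7, ITGA3 at 207 ± 13.5, ITGB3 at 173 ± 6.18 and ITGAV at 113 ± 2.88 on summed transcript FPKM. The leukocyte integrin ITGB2 stood at 75.7, 52.2 and 47.4 CPM. ITGB2, ITGAX, ITGAL and ITGAM were the 4 of 16 integrins of at least 10 CPM whose highest lysate exceeded 1.5 times the lowest, each with lysate 1 on top, against 2.34% of all genes of that level.

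Transcription factors spanned the range of the lysate. Of 1105 genes under the ontology term for sequence-specific RNA polymerase II factors in the deposited table, 827 were detected, and they summed to 32787 CPM. HIF1A, of the oxygen response, stood at 861, 882 and 816 CPM, ZBTB38 at 473 ± 12.9, the proteasome regulator NFE2L1 at 396 ± 14.1, the AP-1 gene FOSL2 at 391 ± 7.23 and EPAS1 (HIF-2 alpha) at 377 ± 15.7 CPM. PAX8, at 286 ± 9.21 CPM, was among the 12 highest, with MYBL2 of the cell cycle at 334 ± 15.1, ATF4 of the stress response at 305 ± 14.2, SREBF2 of sterol synthesis at 292 ± 1.05 and MYC at 284 ± 2.45 CPM. Signal-regulated factors on the fixed list were detected in 64 of 64 cases, with YBX1 at 1279 ± 26.2 and the Hippo pathway coactivator WWTR1 at 531 ± 6.20 CPM. Per length, on summed transcript FPKM, HIF1A lay at 209 ± 8.30, ATF4 at 209 ± 21.7 and PAX8 at 76.5 ± 2.72; HIF1A and ATF4 do not differ beyond their spread. EGR1, an immediate-early factor, stood at 91.0, 98.2 and 152 CPM, with lysate 3 apart from the other two.

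The numbered ZNF genes, C2H2 zinc finger factors of which many carry a KRAB repressor domain, were many and low: 452 of 493 were detected with a median of 11.5 CPM, and 13 averaged at least 100 CPM. ZNF664, ZNF146, ZNF207 and ZNF608 led, at 249 ± 4.99, 200 ± 10.9, 193 ± 5.25 and 179 ± 5.76 CPM. Nuclear receptors were detected in 29 of 46 cases, led by the glucocorticoid receptor NR3C1 at 100 ± 1.20, RXRA at 88.2 ± 3.72, the thyroid receptor THRB at 74.7 ± 2.43 and NR1D2, a clock repressor, at 73.2 ± 2.07 CPM. NR0B2 and NR5A2 had 0 counts in all 3. Of 21 factors with a row that set epithelial against mesenchymal programmes, 13 were detected, with a median of 2.66 CPM over the 21. The epithelial factor ELF3 stood at 92.9 ± 1.71 CPM, while GRHL2, also epithelial, had no row. The mesenchymal factors ZEB2, ZEB1, SNAI2 and SNAI1 stood at 38.8 ± 3.51, 34.9 ± 0.225, 23.7 ± 1.32 and 19.1 ± 1.41 CPM.

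HOX genes, which keep the position of a tissue along the body axis, were detected in 30 of 37 cases. The HOXA cluster summed to 189 ± 12.4 CPM, HOXB to 93.3 ± 4.01, HOXC to 30.1 ± 1.61 and HOXD to 28.2 ± 1.71 CPM. Genes of groups 9 and 10 led each cluster: HOXA9 stood at 69.8, 75.2 and 81.3 CPM, HOXB9 at 46.1, 44.1 and 45.1, HOXC10 at 15.2, 17.3 and 15.8 and HOXD10 at 9.41, 9.25 and 9.74 CPM. HOXA9 was lowest in lysate 1. HOXD13, the most posterior of its cluster, had 0 counts in all 3 lysates.

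VMP1, the gene carried by the plasmid, stood at 291, 282 and 290 CPM in lysates 1, 2 and 3 and was the 505th gene by mean CPM. Lysate 2 was lowest, and the highest lysate was 1.03 times the lowest. Its leading transcript in the deposited transcript table, of 15 listed, took 52.5%, 54.2% and 50.1% of the gene's counts. Reads from the plasmid and from the genome were not told apart here, and lysate of untransfected cells was not used, so the level is no measure of overexpression.

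Genes above 10 CPM mostly varied by a few percent between the lysates. The median coefficient of variation of CPM was 13.1% for genes of 1 to 10 CPM, 5.15% from 10 to 100, 3.09% from 100 to 1000 and 2.95% at 1000 CPM or more; counting error alone would give medians of 5.47%, 1.9%, 0.838% and 0.269%. ATN1, at 131, 131 and 131 CPM, SMCR8, at 103, 103 and 103, and the tRNA synthetase gene IARS1, at 495, 495 and 494 CPM, had the lowest coefficients among named genes above 50 CPM. The coefficient of IARS1, 0.108%, lay below the 0.487% that counting error alone gives. Picked as the lowest of many genes with n = 3, such values do not mark these genes as the steadiest. With edgeR, the biological coefficient of variation common to 19089 genes was 0.150, and its trend ran from 0.294 at 1 CPM to 0.0642 at 100 CPM. Of the 240 genes past the ratio of 1.5, lysate 2 was highest for 22 and lysate 3 for 76, the rest being highest in lysate 1. Without lysate 1 the count was 61 of 10209 (0.598%), without lysate 2 it was 204 and without lysate 3 it was 154.

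**Figure D4:**
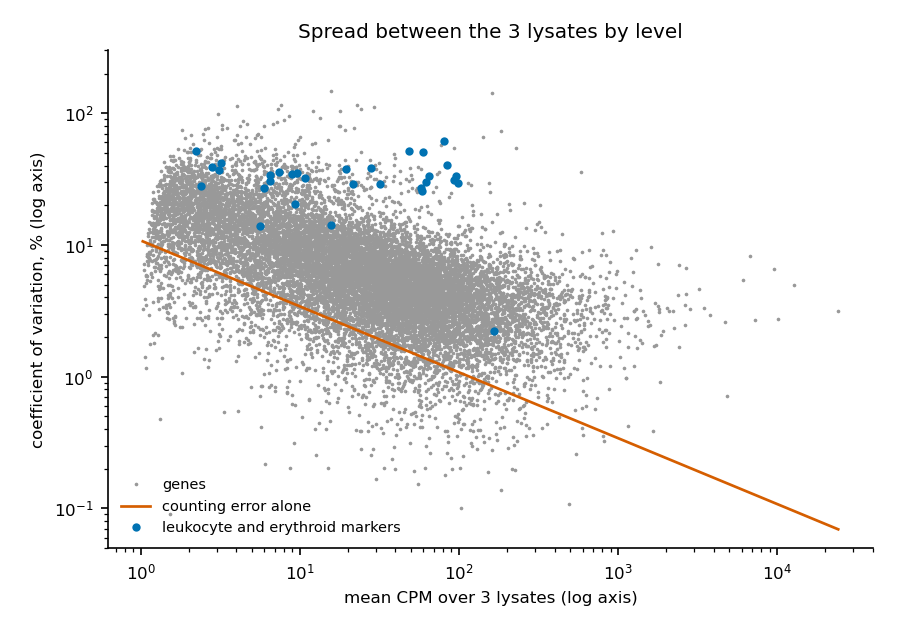
Coefficient of variation over the 3 lysates against mean CPM for detected genes, both on log axes; the line is the coefficient that counting error alone gives, and filled points are detected leukocyte and erythroid markers. Medians fall from 13.1% at 1 to 10 CPM to 2.95% at 1000 CPM or more. The 15 leukocyte markers averaging at least 10 CPM have a median coefficient of 29.8%, and the 3 such erythroid markers of 51.6%. Detected markers under 10 CPM are drawn but not in these 2 medians.

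Genes of blood cells stood out in that count. Of 31 genes typical of white blood cells 28 were detected, and the list's median was 9.63 CPM. The list was chosen with earlier results of these data known, so its counts are description and no independent support. Of 15 members averaging at least 10 CPM, 13 exceeded the ratio of 1.5, each with lysate 1 highest, against 2.34% and 1.39% of all genes of that level. Without lysate 1 it was 0 of 14, against 0.598%. Leaving out a lysate can only lower a gene's ratio or leave it unchanged. With all lysates, the members of the 15 that did not exceed the ratio were CSF1R, the receptor of macrophage colony-stimulating factor, and CD68. CD68, a lysosomal gene not limited to leukocytes, was the highest member, at 171, 165 and 164 CPM, with its lysates close together. The granulocyte receptor FCGR3B stood at 124, 62.0 and 66.8 CPM, the colony-stimulating factor receptor CSF3R at 134, 80.7 and 75.2 CPM and the calprotectin subunit S100A9 at 126, 77.4 and 75.2 CPM. PTPRC (CD45), carried by nucleated blood cells, stood at 75.1, 51.6 and 45.8 CPM. In each, lysate 1 lay above lysates 2 and 3, which lay close together. LCP1, LAPTM5 and LYZ, at 99.2 ± 29.5, 64.7 ± 21.5 and 62.2 ± 18.5 CPM, showed the same order of lysate 1 against the others. MPO and ELANE averaged below 1 CPM.

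**Figure D5:**
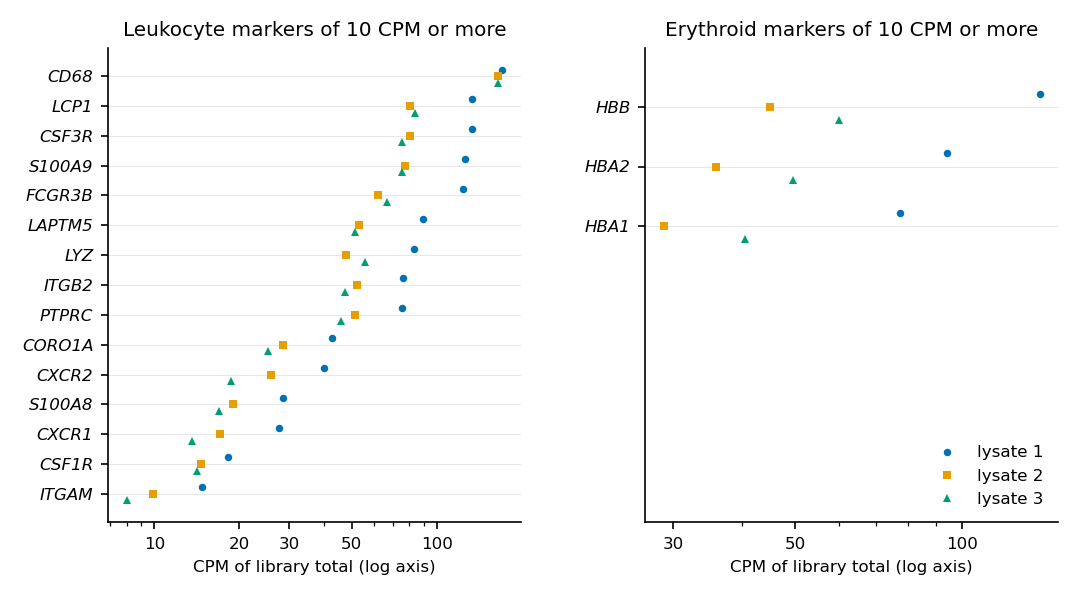
CPM in each lysate of the 15 leukocyte markers and 3 erythroid markers with a mean of at least 10 CPM, on log axes whose range differs. Lysate 1 is highest for each of the 18 genes, while CD68, at 171, 165 and 164 CPM, hardly varies.

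Haemoglobin and immunoglobulin transcripts were highest in lysate 1 too. HBB, the beta globin gene, stood at 138, 45.0 and 59.8 CPM, and the alpha globin genes HBA2 and HBA1, near-identical copies whose split is uncertain, at 94.1, 36 and 49.5 and 77.2, 28.9 and 40.5 CPM. Other erythroid markers, ALAS2 and SLC4A1 among them, averaged below 1 CPM; 3 of 9 with a row were detected. Immunoglobulin genes summed to 178, 57.5 and 52.1 CPM in lysates 1, 2 and 3, led by IGKC at 33.8, 10.2 and 8.76 and IGHA1 at 25.7, 10.05 and 9.14 CPM, and T cell receptor genes to 39.9, 28.4 and 27.0 CPM, led by TRBC2 at 10.1, 7.79 and 7.37 CPM. IGFBP5, at 85.7, 52.1 and 52.3 CPM, and COL1A2 moved with them, as did SRGN. The source of these transcripts, and their part in the values of other genes in lysate 1, was not tested; the leukocyte list as a whole held 0.0985% of counts.

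For several of the most variable genes the coefficient was lower once overlapping genes were added together. SENP3-EIF4A1, a readthrough gene, had the highest coefficient of variation of named genes with 50 CPM or more, at 50.5, 6.85 and 425 CPM, and EIF4A1, the translation helicase it overlaps, stood at 685, 723 and 342 CPM, lowest where the other was highest. Their sum was 736, 730 and 767 CPM, a coefficient of 2.69% against 143% and 35.9% for each alone. The 2 entries for MATR3, an RNA-binding protein of the nuclear matrix, summed to a coefficient of 4.17% against 54.8% and 20.5%, and CHTF8 with DERPC to 4.11% against 38.0% and 38.9%. ST6GALNAC6 with an overlapping unnamed gene gave 5.96% against 35.7% and 112%. Some sums with other overlapping genes stayed high: SENP3-EIF4A1 with SENP3 gave 105%, and EIF4A1 with an unnamed gene 33.3%. CHTF8 and DERPC, each added to UTP4 on the opposite strand, gave 19.1% and 15.2%, though UTP4 itself varied by 3.48%. A lower coefficient of a sum therefore does not by itself show that reads were divided between the genes. For MIF, a cytokine and tautomerase, at 70.0, 108 and 249 CPM, adding its antisense gene MIF-AS1 left 70.3% against 66.1%, and lysate 3 was highest either way. RPL13, at 146, 169 and 372 CPM, was highest in lysate 3 too.

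The division among transcripts of a gene was less stable than the gene's own level. The transcript that led ACTB took 83.4%, 25% and 17.8% of its counts in lysates 1, 2 and 3, though ACTB itself stood at 4869, 4648 and 4660 CPM. The leading transcript of ITGB1 took 0%, 42.6% and 57.3%, and that of FLNA 85.6%, 35.4% and 43.8%. Others were steady: EEF2 and COL4A1 each gave over 99% to 1 transcript, and that of MYH9 took 99.6%, 98.8% and 99.2%. The transcripts that led EEF1A1, GAPDH and ACTG1 are annotated as retained introns, at a mean of 46.1%, 62.2% and 64.9%. Over protein-coding genes, transcripts annotated as coding took 89.7 ± 0.406% of transcript counts, retained introns 5.96 ± 0.151% and decay transcripts 3.57 ± 0.295%. Transcript counts are an estimated split of reads, so these shares describe the deposited assignment.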

How the data were processed

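RNA from the lysates was poly(A)-selected, strand-marked with dUTP and sequenced as 150-base pairs, per the labels' protocols. Tools listed without a role, per the submitters' processing notes, are StringTie 2.1.6, HISAT2 2.2.1, cutadapt 1.9, edgeR and DESeq2, with build GRCh38.p14. No source used here states the counting strand, and values of antisense or overlapping genes are therefore uncertain. Raw read counts of genes and transcripts were deposited by the authors, per the file headers. The authors also deposited FPKM, normalised for length and depth, per the file headers. Columns called input 1 to 3 were taken for the lysates by their names.

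Gene counts were divided by each library's total (77753608, 86998067 and 92948069). FPKM was added up over a gene's transcripts, a scale chosen after seeing the data. Spread was estimated with edgeR 4.0.16 in R 4.3.3 (TMM, intercept only); on simulated counts of 20050 genes with a coefficient of 0.1 it gave 0.0998. The pairs of lysates differed by more than sampling noise (chi-square per gene, mean of 17.3 to 26.0 and median of 3.58 to 4.73). Each was treated as 1 library. That excess does not show that the lysates came from separate cultures. With 1 group, no test was made. Alternatives were other thresholds, scalings (DESeq2 1.42.0), FPKM, and leaving out each lysate.

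The libraries and the 30 gene lists (842 symbols, 806 with a row in the gene table) were chosen with earlier results of these data known. Named were the 25 most abundant genes by CPM and by FPKM, up to 8 highest and 6 zero-count members of a list, the 12 highest transcription factors, 5 genes of a class, those of highest and lowest variation, and VMP1; others were named after their values were seen. Some genes that these rules name are not reported here.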

Additional observations from a re-analysis of the deposited data

How the results depend on the processing

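No paired analysis was possible because the values come from 1 group of lysates and no test. Shares depended on the unit. With deposited gene FPKM, the first 1, 10, 100 and 1000 genes held 6.15%, 22.2%, 38.4% and 62.9%, and with summed transcript FPKM, chosen after seeing the data, 3.73%, 14.6%, 33.4% and 61.3%. Protein-coding genes, the mitochondrial genome, long noncoding genes and pseudogenes took 70.9%, 24.6%, 1.25% and 2.86% of gene FPKM, and 81.7%, 14.9%, 1.24% and 1.89% of transcript FPKM. Both units divide by length, which raises short genes. The biological coefficient of variation was 0.252 with every gene that had a count and 0.0926 with a mean of at least 10 CPM; leaving out 1 lysate gave 0.131 to 0.165. The count of genes past the ratio of 1.5 was 57 at a ratio of 2, 16363 with no filter on level, and 61 to 204 with 1 lysate left out; leaving out lysate 1 or lysate 3 moved it by over 1.5 times. Of 14502 detected genes, other thresholds gave 11575 to 19083, both other scalings 14497 and leaving out a lysate 14636 to 14684. With 1 lysate left out, the first 1, 10, 100 and 1000 genes held 2.40 to 2.47%, 8.95 to 9.18%, 21.6 to 21.9% and 50.6 to 50.8%, and the classes in the order above 91.4 to 91.7%, 6.35 to 6.62%, 0.915 to 0.933% and 0.792 to 0.825%. Of the listed symbols 602 were detected, 601 under either scaling, 512 at 5 CPM and 634 at 0.5 CPM. The number of lysates, 3, which may share a culture, limits the precision.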

Other observations

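Receptor tyrosine kinases and growth factors, which the account of the lysate above does not cover, were led by AXL and TGFB2. Of 52 receptor tyrosine kinase genes with a row 33 were detected, with a median of 4.94 CPM and a sum of 2798 ± 74.4 CPM (SD, n = 3). AXL, the receptor of GAS6, stood at 604, 624 and 555 CPM in lysates 1, 2 and 3, and MET, the receptor of hepatocyte growth factor, at 467, 447 and 428 CPM. Lysate 3 was lowest for AXL. EGFR stood at 278, 266 and 266 CPM, with FGFR1 at 226 ± 8.33 and IGF1R at 180 ± 0.739 CPM. INSRR and MUSK had 0 counts in all 3 lysates. No member of at least 10 CPM was past the ratio of 1.5 between lysates, against 2.34% of all genes of that level.

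Growth factor and cytokine genes were detected in 47 of 60 cases, with a median of 8.37 CPM. TGFB2, of the transforming growth factor family, stood at 490, 484 and 453 CPM. TNFSF10, which encodes the death ligand TRAIL, stood at 240, 236 and 239 CPM, and IL32 at 182, 171 and 173 CPM. The EGFR ligands EREG and TGFA stood at 175 ± 11.5 and 165 ± 7.95 CPM. LIF, PDGFC and the activin subunit INHBA stood at 163 ± 8.06, 160 ± 3.88 and 149 ± 8.57 CPM. IGF1, and BMP7, a factor of nephron development, had 0 counts in all 3. Of 29 members with at least 10 CPM, 3 were past the ratio of 1.5, against 2.34% of all genes of that level. MIF stood at 70.0, 108 and 249 CPM and GDF15, named after its values were seen, at 14.5, 21.1 and 23.0 CPM, both highest in lysate 3. CCL5, likewise named after its values were seen, stood at 21.2, 12.1 and 10.95 CPM and was the 1 with lysate 1 highest, against 1.39% of all genes of that level.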
